A study of Homo sapiens with 4 samples.

Results

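MiR-17-5p, miR-20a, miR-20b, miR-106a, miR-106b and miR-93 form a family of human miRNAs that share 1 seed. They are 6 of the 455 human miRNAs probed on the arrays. They were chosen by name, as the human match probes of these names, together with their mismatch probes and the mouse and rat probes of the same names. A miRNA guides the silencing complex to mRNAs that pair with its seed, so miRNAs with 1 seed share most of their predicted targets. This family is known from studies in human and mouse cells to repress the cell cycle inhibitor p21 and members of the E2F transcription factors. It is processed from 3 paralogous transcripts, the miR-17-92, miR-106a-363 and miR-106b-25 clusters, of which the first is an oncogene in lymphoma.

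The cells were LNCaP, an established human prostate adenocarcinoma line with an androgen receptor. Every culture was kept for 24 hours without androgen, in 10% charcoal-stripped serum, before treatment. The groups are an untreated culture (0 nM) and cultures given 0.1, 1 or 10 nM of R1881, a synthetic androgen, with 1 array each. No value below therefore has a replicate error, and how long R1881 was present is not given in the sources used here. The comparison asks whether the family responded to androgen, and whether the clusters responded alike.

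The mature sequences, from RefSeq for assembly GRCh38.p14, are shown because the members are so alike that a hybridisation probe may not separate them. All 6 names were matched. The seed, bases 2 to 8, is in capitals.
miR-17-5p: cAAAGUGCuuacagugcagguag
miR-20a: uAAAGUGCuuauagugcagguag
miR-106a: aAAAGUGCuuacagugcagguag
miR-20b: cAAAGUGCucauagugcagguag
miR-106b: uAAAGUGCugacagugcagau
miR-93: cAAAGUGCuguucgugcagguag
Positions are counted from 1 at the 5′ end, with the base of miR-17-5p first. MiR-106a differs from miR-17-5p by C1A alone. MiR-20a differs by C1U and C12U, and miR-20b by U10C and C12U. MiR-106b differs by C1U, U10G and G20A over the 21 bases that RefSeq lists for it, and miR-93 by U10G, A11U, C12U and A13C. Over the 15 pairs of members, 1 to 5 bases differ, and 5 pairs differ by 2 bases or fewer. MiR-106b and miR-93, from the same cluster, are 1 of the pairs that differ by 5.

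MiR-17-5p lies at chr13:91350618-91350640 and miR-20a at chr13:91351072-91351094, both on the plus strand within the noncoding host gene MIR17HG. MiR-106a lies at chrX:134170244-134170266 and miR-20b at chrX:134169850-134169872 on the minus strand, within MIR106AHG. MiR-106b at chr7:100094043-100094063 and miR-93 at chr7:100093815-100093837, also on the minus strand, lie within MCM7, which encodes a subunit of the replicative helicase. The mature forms of each pair span 477, 417 and 249 bases in that order of clusters.

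RefSeq lists 2 more human miRNAs with this seed, both from the placental cluster on chromosome 19, and they are shown because only the seed is shared.
miR-519d: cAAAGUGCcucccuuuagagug
miR-526b*: gAAAGUGCuuccuuuuagaggc
Neither was detected on any array. The net signals of miR-519d were 15, 18.25, 19 and 44 at 0, 0.1, 1 and 10 nM, and those of miR-526b* did not exceed 0.

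Signals are given as net signal, which is a probe's mean signal minus the array's median over the 604 mismatch probes (371.5, 355, 295.75 and 280.25 at 0, 0.1, 1 and 10 nM). A probe counted as detected when its mean signal exceeded 519, 506, 435 and 424 on these arrays, the median of the mismatch probes plus 3 scaled median absolute deviations. All 6 members were detected on all 4 arrays, as were 40 of the 455 human miRNAs (8.79%). On 1 array or more, 80 of the 455 human miRNAs were detected. Of the marker lists, 5 of 7 epithelial miRNAs were detected by that count, 4 of them on all 4 arrays, and miR-375 and miR-429 were not. None of the blood, muscle, and liver or neuron markers was detected, and of 5 stromal or endothelial ones only miR-214 was, though not on all 4. The overall signal was lower on the 0.1 nM array. As fractions of their untreated net signals, the 34 other miRNAs that all arrays detected had medians of 0.626 (0.1 nM), 0.976 (1 nM) and 0.965 (10 nM). A bulk extract cannot tell fewer cells with a miRNA from less of it per cell.

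The family held 4.43% of the summed net signal of detected human miRNAs in untreated cells, and 5.84%, 6.06% and 5.13% with 0.1, 1 and 10 nM R1881. Probes differ in brightness, so these shares describe signal and not copies. MiR-106a ranked brightest of the 6 on every array, at rank 12 to 21 of the 455 human probes, and miR-106b and miR-93 lay between rank 31 and rank 48. The miR-106b-25 pair gave 21.0% of the family's signal in untreated cells, against 17.3%, 15.7% and 16.5% with 0.1, 1 and 10 nM.

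The mismatch probes stayed at background. Each member has a probe that carries 2 mismatched bases, and none of these 6 was detected on any array. The threshold was set from all 604 mismatch probes, of which 4, 3, 7 and 16 passed it at 0, 0.1, 1 and 10 nM. The count for the members is near that share. Net signals of the members' mismatch probes ran from -60.25 to 70.75, while the match probes ran from 195 to 1182.25. At most, a mismatch probe had 13.7% of the net signal of its match probe. The mismatch probes of the mouse miR-106a and miR-20b probes were not detected either, at -76.5 to -20.75. Members of the family differ from each other by as few as 1 base, where these controls differ by 2, so they do not show how far the probes of miR-17-5p, miR-106a, miR-20a and miR-20b read each other's miRNAs. That cross-reading was not tested.

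**Figure D1:**
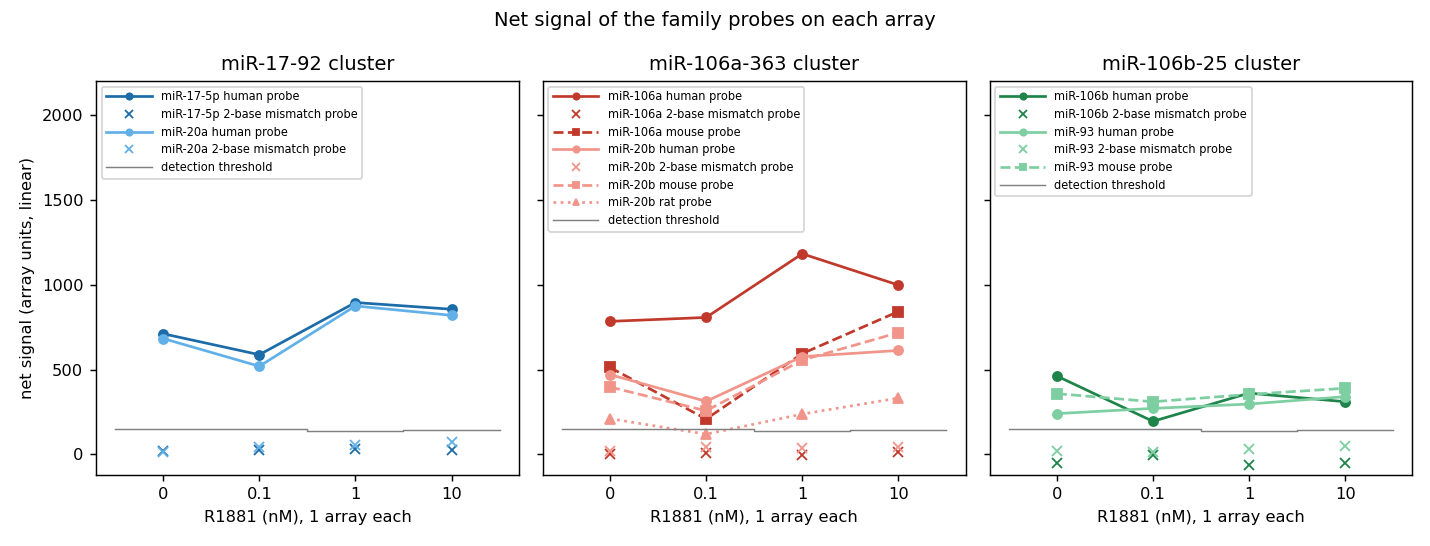
Net signal (linear array units, vertical axis) of each family probe on the 4 arrays (R1881 in nM, horizontal axis), by cluster. Circles are human probes, squares mouse, triangles rat and crosses the human 2-base mismatch probes; the grey line is the detection threshold. Mismatch probes lie under the threshold on every array, miR-17-5p and miR-20a run together, and miR-106b is highest without R1881.

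In the miR-17-92 cluster, both members ran together over the arrays. MiR-17-5p, the guide strand of the first hairpin of that cluster, had net signals of 711, 587.5, 895 and 855.5 at 0, 0.1, 1 and 10 nM. MiR-20a had 682.75, 519.5, 874.75 and 819.5. Both were lowest on the dim 0.1 nM array and higher at 1 and 10 nM than without R1881. After background correction and quantile normalisation, which gives each array the same distribution of signals, the log2 ratios to the untreated array at 0.1, 1 and 10 nM were 0.57, 0.22 and 0.17 for miR-17-5p. For miR-20a they were 0.47, 0.20 and 0.03. The gap between both was at most 0.14 at any dose. Without normalisation both turned negative at 0.1 nM, at -0.28 and -0.39, where the median of all 80 human miRNAs detected on any array stood at -0.45.

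In the miR-106a-363 cluster, miR-106a and miR-20b ran less closely. MiR-106a had net signals of 784, 807, 1182.25 and 998, the only member of this pair that was not dimmer at 0.1 nM than without R1881. MiR-20b had 470.25, 312.75, 576.25 and 612.5. The log2 ratios of miR-106a were 0.77, 0.50 and 0.16 in order of dose, and those of miR-20b were 0.21, 0.27 and 0.07. MiR-106a exceeded miR-20b by 0.56 at 0.1 nM, 0.23 at 1 nM and 0.09 at 10 nM. At 0.1 nM that gap was 0.48 to 0.77 over 6 ways of processing. At 1 nM miR-106a was at 1.42-fold its untreated level, and miR-17-5p, from which it differs by 1 base, at 1.16-fold.

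In the miR-106b-25 cluster the members ran apart. MiR-106b had net signals of 462.25, 195, 361.25 and 310.5, and was brightest without R1881. MiR-93 had 240.5, 271.25, 296.75 and 340.5, and was dimmest without R1881. The log2 ratios of miR-106b at 0.1, 1 and 10 nM were -0.34, -0.23 and -0.54, which are negative at each dose. Those of miR-93 were 0.75, 0.19 and 0.19. MiR-106b thus stood below miR-93 by 1.09, 0.42 and 0.73 on the log2 scale. A gap between ratios of 1 pair of arrays does not depend on a constant scaling of either, and over the 6 ways of processing it stayed between 0.74 and 1.57 at 0.1 nM, 0.28 and 0.66 at 1 nM, and 0.48 and 1.08 at 10 nM.

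Against the mouse probe of miR-93 the gap was smaller. That probe had net signals of 358.25, 310.25, 353.75 and 389.75 and log2 ratios of 0.42, -0.06 and -0.13, so miR-106b stood below it by 0.76, 0.17 and 0.40. The third miRNA of the cluster, miR-25, which has another seed, had net signals of 346.25, 229.75, 339.25 and 334.5 and log2 ratios of 0.07, -0.09 and -0.22. It lay between miR-106b and the human probe of miR-93 at each dose. All 3 ratios of miR-106b share the untreated array, so a high reading of that probe on that 1 array would lower all of them. Whether it was high there was not tested, since no second untreated array is in hand.

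**Figure D2:**
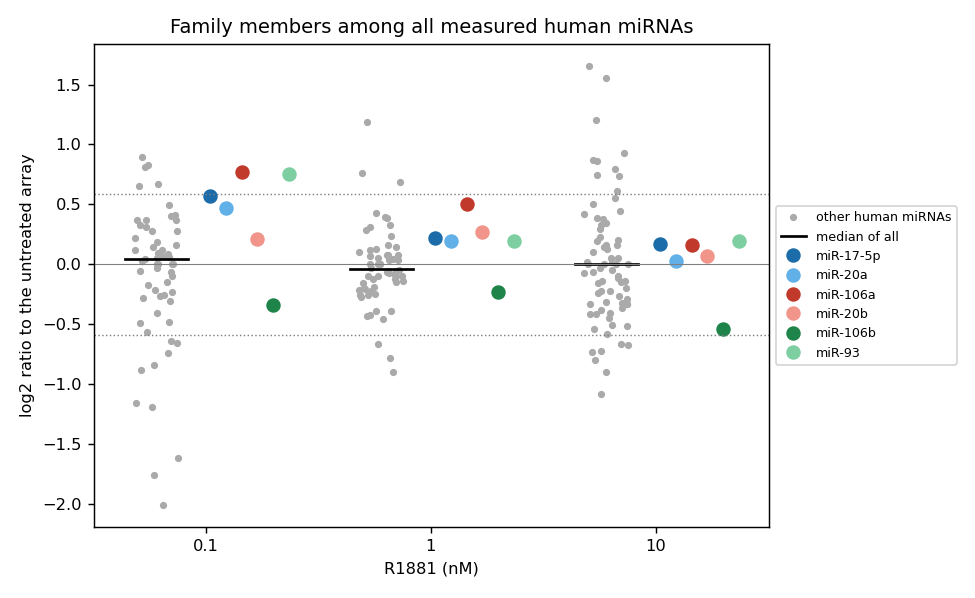
Log2 ratio to the untreated array (vertical axis) at 0.1, 1 and 10 nM R1881 (horizontal axis) of the 6 members, in colour, and of the other human miRNAs detected on either array, in grey. Black bars are medians of all miRNAs and dotted lines mark 1.5-fold. MiR-106b is the lowest member at each dose, and miR-106a and miR-93 pass 1.5-fold at 0.1 nM.

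Across the 6 members, the log2 ratios at 0.1, 1 and 10 nM had medians of 0.52, 0.21 and 0.11. The medians over all human miRNAs measured at those doses were 0.04 (65 miRNAs), -0.04 (66) and 0.00 (79). At 0.1 nM the family median depended on the processing. It was 0.42 without background correction, 0.31 with median centring and -0.33 without normalisation. It was 0.28 when the signal of a member's own mismatch probe was subtracted and 0.19 in the authors' value table, both median centred here as well. Before centring, net signals at 0.1 nM were 1.03 and 1.13 times the untreated ones for miR-106a and miR-93, and 0.42 to 0.83 times for the others. The family median stood above the median of all miRNAs by 0.48 in the values used here, by 0.20 with median centring and equally without normalisation. At each dose 5 members were above 0 and miR-106b was below. That count was 3 with median centring at 1 nM, where 16.7% of all miRNAs were above 0, and 1 without normalisation at 0.1 nM, where 9.23% were. It was 4 at 0.1 nM with the own mismatch signal subtracted (47.7% of all miRNAs). In the authors' value table it was also 4, beside 42.1% of the 38 miRNAs with values there. The scalings moved the median of all 80 miRNAs. That median was 0.00, 0.04 and 0.00 in order of dose after quantile normalisation, 0.19, -0.23 and 0.01 with median centring, and -0.45, 0.00 and 0.16 without normalisation. After quantile normalisation, 52.3%, 42.4% and 45.6% of all miRNAs measured were above 0. MiR-106a was 4th highest of 65 at 0.1 nM and 4th highest of 66 at 1 nM, while miR-106b was 51st of 65, 54th of 66 and 70th of 79. The members' ratios had an SD of 0.42, 0.24 and 0.28 at the 3 doses, beside 0.60, 0.33 and 0.52 over all miRNAs.

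At a threshold of 1.5-fold, 2 of the 6 were higher at 0.1 nM, miR-106a at 1.71-fold and miR-93 at 1.69-fold, where 10.8% of all miRNAs were. None was lower, where 15.4% were. MiR-17-5p was just short of that threshold, at 1.49-fold. At 1 nM none of the 6 was past 1.5-fold, where 4.55% of all were higher and 4.55% lower. At 10 nM none was, where 12.7% were higher and 8.86% lower. With median centring in place of quantile normalisation, miR-106b was lower by 1.5-fold at 10 nM, which makes 1 of 6 where 13.9% of all miRNAs were lower. At 2-fold none of the 6 was past the threshold in either direction. Of all miRNAs, 0.0% were higher and 7.69% lower at 0.1 nM by that rule, 1.52% higher and 0.0% lower at 1 nM, and 3.8% higher and 1.27% lower at 10 nM. With 1 array a dose these counts have no test, and 6 miRNAs are too few to set their share apart from the background.

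**Figure D3:**
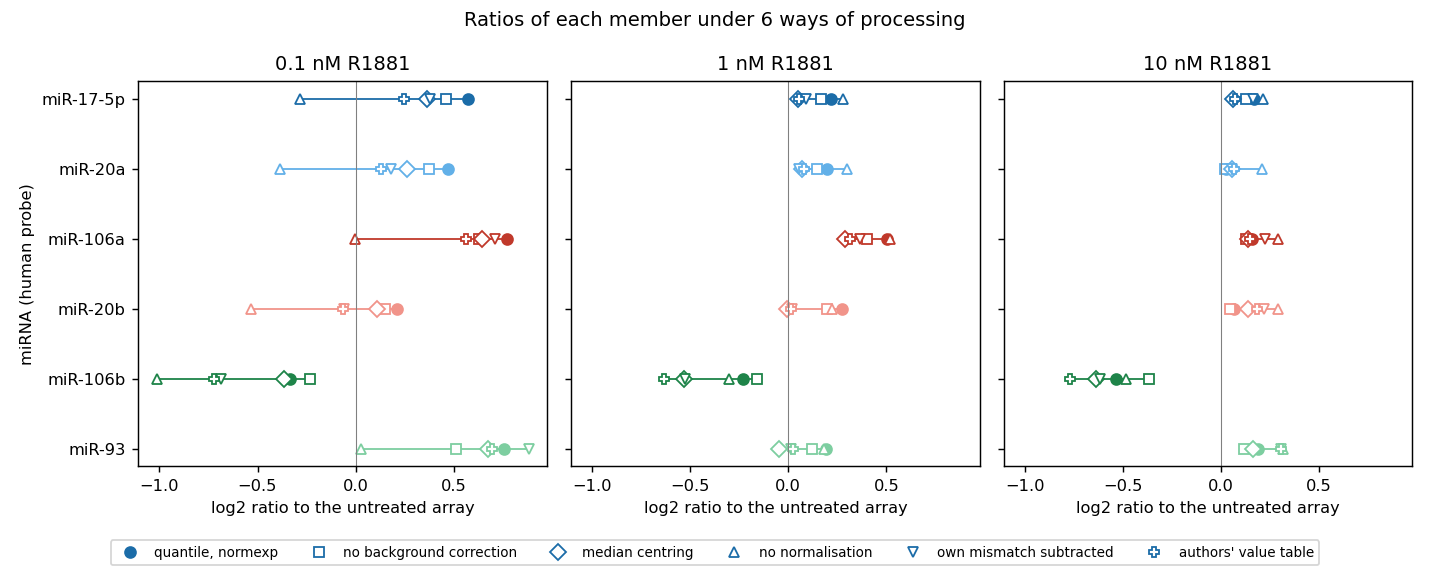
Log2 ratio to the untreated array (horizontal axis) of each human probe (vertical axis) at 0.1, 1 and 10 nM R1881 under 6 ways of processing. Filled circles are the values in the text and lines join the lowest and highest. MiR-106b lies below 0 in all 18 combinations of dose and processing, over which 9.23% to 60.8% of all miRNAs measured were above 0. The other 5 change most at 0.1 nM, where leaving out normalisation moves them to between -0.53 and 0.03.

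MiR-106b was the lowest of the 6 and below 0 in 18 of 18 combinations of 3 doses and 6 ways of processing. These reuse the same 4 arrays, and median centring and no normalisation always give the same order of members. The share of all miRNAs measured that were above 0 ran from 9.23% (0.1 nM) to 60.8% (10 nM), both without normalisation. At 1 nM it was 16.7% with median centring, 21.2% with the own mismatch signal subtracted and 18.9% in the authors' value table. Most miRNAs were thus below 0 in these settings at 1 nM. The log2 ratio of miR-106b ranged from -1.01 to -0.23 at 0.1 nM, from -0.63 to -0.16 at 1 nM and from -0.77 to -0.36 at 10 nM. MiR-106a ranged from 0.29 to 0.52 at 1 nM and from 0.13 to 0.29 at 10 nM. At 0.1 nM it ranged from -0.0015 to 0.77, and the lowest of these was without normalisation.

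Set between treated cultures, 10 nM over 1 nM, the family lay near the other miRNAs. The log2 ratios were -0.05 for miR-17-5p, -0.17 for miR-20a, -0.34 for miR-106a, -0.21 for miR-20b, -0.31 for miR-106b and 0.00 for miR-93. Over the 6 ways of processing, miR-106a and miR-106b were below 0 in all 6. MiR-20b was above 0 in 4, at 0.07 to 0.20, and its net signals were 612.5 at 10 nM and 576.25 at 1 nM. MiR-93 was above 0 in 4, miR-17-5p in 3 and miR-20a in 1. The median over the 40 miRNAs detected throughout was -0.14, with an SD of 0.26. MiR-106b lay within 1 SD of that median and above miR-106a. This comparison does not use the untreated array, and in it miR-106b lay 0.31 below the human probe of miR-93. The mouse probe of miR-93 stood at -0.07. The net signals were 310.5 at 10 nM and 361.25 at 1 nM for miR-106b, and 340.5 and 296.75 for miR-93.

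A straight line over the 4 dose steps was fitted with limma to the 80 human miRNAs detected on any array. None of the 6 members passed a Benjamini-Hochberg adjusted p of 0.05, and 0.0% of the 80 did in either direction. With limma, 0 of the 6 and 7 of the 80 had an unadjusted p under 0.05. The steepest slope was that of miR-106b, at -0.15 ± 0.08 (SE) log2 per step, with a limma adjusted p of 0.514. The other slopes ran from -0.02 to 0.03, with limma adjusted p-values of 0.932 to 1.00. The fit leaves 2 residual degrees of freedom, and its error is the spread around a line and not between cultures.

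The means of the 3 clusters lay closer to each other than miR-106b and miR-93 did, the widest of the 3 pairs. Their mean log2 ratios at 0.1 nM were 0.52 for miR-17-92, 0.49 for miR-106a-363 and 0.21 for miR-106b-25. In the authors' value table, after median centring, these means were 0.19, 0.25 and -0.01. With the own mismatch signal subtracted and the same centring they were 0.28, 0.33 and 0.10. Without normalisation all 3 were negative, at -0.33, -0.27 and -0.49. At 1 nM they were 0.21, 0.39 and -0.02, and at 10 nM 0.10, 0.11 and -0.17. The miR-106b-25 mean was the lowest at each dose. The cluster means spread over 0.31, 0.41 and 0.28 in order of dose, while miR-106b and miR-93 lay 1.09, 0.42 and 0.73 apart inside 1 cluster. The distance within that pair exceeded the distance between clusters in 17 of 18 combinations of dose and processing. The exception was 1 nM without background correction. Median centring and no normalisation gave identical distances at each dose, so 1 of these settings adds nothing to that count. The count also favours the pair in advance. It sets the widest of 3 pairs against means, and averaging the members of each cluster narrows the spread. It therefore does not show whether the clusters responded alike.

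Other products of the clusters were mostly at background, as were most human miRNAs on the array. Of 8 cluster mates on the array, 3 were detected on 1 array or more, beside 80 of the 455 human miRNAs. MiR-17-3p, miR-18a, miR-19a, miR-18b and miR-363 were not detected on any array. MiR-25 was detected on all 4, miR-19b on 3 and miR-92 on 2. MiR-19b, which miR-17-92 and miR-106a-363 both encode, had net signals of 291.25, 27.75, 262 and 300 and was not above background at 0.1 nM. MiR-92, encoded by both as well, had 153.5, 166.75, 106 and 116.5, not above background at 1 and 10 nM. At 0.1 nM, where both arrays detected it, the log2 ratio of miR-92 was 0.37, against -0.06 without normalisation. The ratios of miR-19b were -0.09 at 1 nM and -0.10 at 10 nM. The 4 family members of these clusters, on chromosomes 13 and X, lay between 0.21 and 0.77 at 0.1 nM and between 0.03 and 0.50 at 1 and 10 nM.

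**Figure D4:**
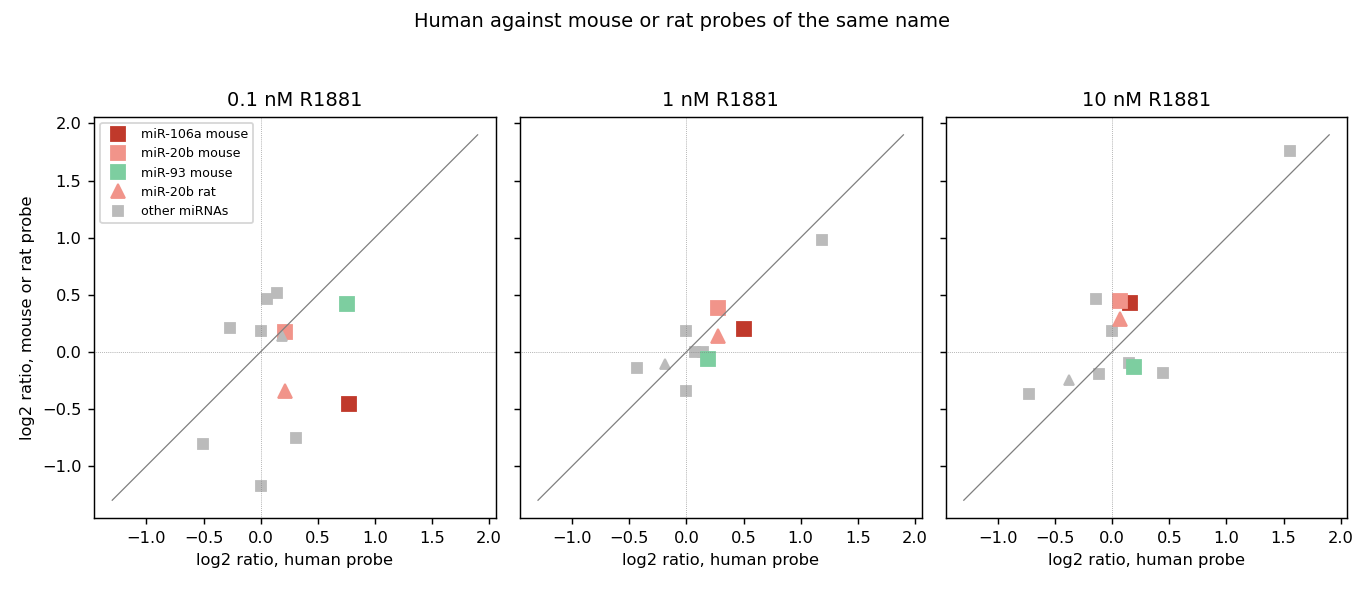
Log2 ratio to the untreated array of mouse or rat probes (vertical axis) against the human probe of the same name (horizontal axis) at 3 doses of R1881, with the line of equality. Colours mark the 4 family pairs and grey the 8 other pairs. At 0.1 nM the mouse probe of miR-106a lies 1.23 below the human one, while at 10 nM the family pairs lie within 0.38 of the line. The rat probe of miR-20b was not above background at 0.1 nM, so its point there is no measured ratio.

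Mouse and rat probes of 3 members were hybridised to the same RNA. Their sequences are not used here, so how well they match the human miRNAs, and how much of a gap between probes comes from the probe, was not tested. The mouse probe of miR-106a had net signals of 512.25, 208.5, 594 and 842, and was detected on all arrays. Its log2 ratios were -0.46, 0.20 and 0.43, against 0.77, 0.50 and 0.16 for the human probe. The gap of 1.23 at 0.1 nM was the largest of 12 such pairs on the array, 2 of which share the human probe of miR-20b. MiR-20b was closer: its mouse probe had 397.25, 257, 555.75 and 717.5 and log2 ratios of 0.17, 0.38 and 0.45. Its rat probe had 210.75, 119.25, 237.75 and 332, was not above background at 0.1 nM, and stood at 0.14 and 0.29 at 1 and 10 nM.

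Over the 12 pairs, some with a probe below background, the median absolute difference between probes of 1 name came to 0.39, 0.16 and 0.26 in order of dose. Over the 8, 9 and 10 pairs with both probes detected on both arrays it was 0.35, 0.18 and 0.26. The mouse probes of miR-106a, miR-20b and miR-93, all detected on every array, had a median of 0.17 at 0.1 nM, where the human probes of these 3 had 0.75. At 1 nM those medians were 0.20 for mouse and 0.27 for human probes, and at 10 nM 0.43 and 0.16. Of the 3 mouse probes, 2 were above 0 at each dose.

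The miRNAs outside the family whose ratios lay nearest to the family's mean profile (0.41, 0.19 and 0.01 at 0.1, 1 and 10 nM) were let-7c, miR-203 and let-7g. Likeness was the root mean square difference over the 3 ratios, among the 34 others detected on all arrays, and was 0.11, 0.12 and 0.13 for these, against a median of 0.35. The ratios of let-7c were 0.32, 0.11 and -0.15, those of miR-203 were 0.31, 0.29 and -0.14, and those of let-7g were 0.40, -0.03 and -0.03. By the same measure miR-20a lay at 0.04, miR-20b and miR-17-5p at 0.13, miR-93 at 0.23, miR-106a at 0.29 and miR-106b at 0.59. MiR-20a lay nearer to the mean of its own family than these 3, which were picked as the nearest. MiR-20b lay level with let-7g and farther off than let-7c and miR-203, and the other members lay farther off than all 3. The members themselves enter that mean. All ratios share the untreated array.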

How the data were processed

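Per the labels, 10 µg of total RNA per culture carried a Cy3 label and went onto a CombiMatrix array, read in 1 colour. Per the file headers the deposited column is a mean signal, a linear intensity; scanner, image software and background step are not stated there. The authors' value table, a deposited intensity as well, equals the mean signal minus each array's median mismatch signal, with low cells blank. For the comparisons it was read as log2 and median centred here on the human miRNAs detected on all arrays. The signals with the own mismatch subtracted were centred in the same way. Probes listed at 0 (3 to 7 per array) were treated as missing, also for the detection threshold. The median mismatch signal subtracted for net signals kept them. Signals were corrected by normexp with an offset of 50 and match probes of all species quantile normalised (limma 3.58.1, R 4.3.3), and read as log2. The dose trend (lmFit and eBayes, two-sided, Benjamini-Hochberg) was tested on simulated data. MiR-92b, in the planned list of mates, belongs to none of the 3 clusters and is left out of their counts; it was not detected. Other miRNAs were named by a rule: the 3 nearest in ratio profile among those detected on all arrays. Members, lists and tests were chosen with earlier results of these data known.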

Additional observations from a re-analysis of the deposited data

How the results depend on the processing

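No paired analysis was possible because each dose has 1 array. A value was taken to move when it shifted by more than the median difference between probes of different species for 1 name (0.39, 0.16 and 0.26 at 0.1, 1 and 10 nM), whose match to the human miRNAs was not tested. Without normalisation, at 0.1 nM, the family median was -0.33, the cluster means were -0.33 (miR-17-92), -0.27 (miR-106a-363) and -0.49 (miR-106b-25), miR-106a turned to 0.00 (a value of -0.0015), 0 members were 1.5-fold higher (0.0% of all miRNAs) and 1 lower (43.1%). With mouse and rat probes at 0.1 nM the family median was -0.087, the miR-106a-363 mean -0.27, miR-106a -0.46, and 0 were higher; that median and mean include a rat miR-20b probe not above background. With mouse probes alone, chosen after seeing the data, they were 0.17 and -0.14, and at 10 nM 0.43 and 0.44. At 0.1 nM, 1 member was 1.5-fold higher without background correction (4.62% of all), 1 with the authors' value table (5.26%), and 0 at 2-fold (0.0%); 1 was lower with the own mismatch signal subtracted (24.6%) and 1 with the authors' table (18.4%). At 1 nM, median centring, own mismatch and the authors' table gave family medians of 0.020, 0.036 and 0.041. Their miR-106a-363 means were 0.14, 0.19 and 0.17, and their miR-106b-25 means -0.29, -0.25 and -0.30. The authors' table made 1 member lower there (20.8%). At 10 nM the same 3 settings each made 1 member 1.5-fold lower (13.9%, 19.0% and 20.4%), and mouse and rat probes put the miR-106a-363 mean at 0.40. The cause of these shifts was not tested. The authors' table was median centred for all of these values, as were the signals with the own mismatch subtracted. Shares given for that table are of the 38, 53 and 54 miRNAs with values there at 0.1, 1 and 10 nM, as its low cells are blank. No member passed the limma trend under any of 7 alternatives; without the 0.1 nM array miR-106b had an unadjusted limma p of 0.0332 and an adjusted p of 0.161. All 24 detections held at both other thresholds. Signal near background limits miR-93 and miR-106b most, whose net signals fall to 240.5 and 195.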
